A study of Mus musculus with 22 samples.

Results

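At postnatal day 8 (P8), RNA bound to tagged outer hair cell ribosomes was compared with RNA of the whole cochlea. The comparison rests on the libraries labelled P8, 2 of ribosome-bound RNA (IP) and 2 of whole-cochlea RNA (input), which are 4 of the 22 libraries of the series. The other 18 are IP and input libraries of P14, P28, 6 weeks and 10 weeks. Their values are shown only where P8 is set against the later ages. They also enter the scaling, the gene filter and the estimate of spread behind every P8 test. All mice of both fractions and all ages were PrestinCreERT2/+;RiboTagHA/+. In these mice a tamoxifen-inducible Cre recombinase is made from the prestin locus (Slc26a5), which outer hair cells use, and Cre switches the ribosomal protein Rpl22 to a form carrying a haemagglutinin (HA) tag. Mice younger than 21 days, among them the P8 mice, received tamoxifen at 3 mg per 40 g, and mice of 21 days and older received 9 mg per 40 g. IP libraries came from a pulldown with an antibody to HA, and input libraries from total RNA of the cochlea with no antibody. The series' design text describes independent biological duplicates or triplicates and gives P21 for the age that the sample labels give as P28; the labels were followed. No library of mice without Cre or without the tag was analysed here.

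Outer hair cells are the electromotile sensory cells of the organ of Corti, which amplify sound by changing length through the membrane motor prestin. In the mouse, the days around P8 lie before the onset of hearing, when mechanotransduction is already present and prestin and the efferent acetylcholine receptors are still building up. In a RiboTag pulldown, messenger RNAs on tagged cytoplasmic ribosomes are collected. An RNA is enriched where it makes up a larger share of the collected RNA than of the RNA of the whole tissue. Mitochondrial ribosomes do not carry Rpl22.

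The 4 P8 libraries differed in composition. Total reads numbered 49470561 and 40626155 in IP 1 and IP 2 and 64504056 and 71023032 in input 1 and input 2. A single gene row, Gm42418, took 58.3% of the gene reads of input 2, against 2.81% in input 1 and 1.40% and 2.46% in the IP libraries. Gm42418 is a predicted gene that overlaps a ribosomal RNA copy. In input 2, 51.4% of all reads were aligned to more than one place, against 21.4% in input 1 and 11.8% and 13.6% in IP. Outside Gm42418, input 2 kept 8199831 gene reads, against 38785388 in input 1 and 29790035 and 25695980 in the IP libraries. Lars2 and Gm23935, rows that also overlap ribosomal RNA copies, took 17.0% and 8.78% of these remaining reads of input 2. Gene rows with any read numbered 18834 in IP 1 and 15565 in IP 2, and 20415 and 16585 in input 1 and input 2. The deposited values of input 2 were lower than those of input 1 for most genes, with a median ratio of 0.129. Values were therefore rescaled to the gene reads outside Gm42418 with a composition factor (TMM, trimmed mean of M values), and the result is called scaled CPM, in reads per 1000000; the median ratio of input 2 to input 1 was then 0.907, and that of IP 2 to IP 1 was 0.9999. On log2(scaled CPM + 1), Pearson's r across the genes tested was 0.912 between the IP libraries, 0.937 between the inputs, 0.900 between IP 1 and input 1 and 0.847 between IP 2 and input 2, and genes are not independent points.

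Among 20490 genes, 1082 showed higher and 1058 lower values in P8 IP than in P8 input (limma, Benjamini-Hochberg adjusted p under 0.05, 2 libraries a group). These are 5.28% and 5.16% of the genes tested, the background against which each gene group below is read. The spread was estimated over all 22 libraries. The median log2 change over all genes was -0.05. The split depended on the scaling: the values as deposited gave 2179 higher and 7 lower, with a median of 0.74, and scaling without the TMM factor gave 1416 higher and 611 lower. Both IP libraries lay above both inputs in 21.9% of genes and below both in 26.3%. Without input 2, 442 genes were called higher and 503 lower; without IP 2 these were 518 and 463, without input 1 688 and 563, and without IP 1 765 and 892. Calls shared by the full comparison and all 4 of these reduced ones numbered 321 higher and 233 lower. A fit of the 4 P8 libraries alone called none after adjustment, with 4550 genes at an unadjusted p under 0.05, against 4670 in the full fit.

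Of 14 outer hair cell markers, 4 were called higher in the pulldown and 10 were not called. Ocm encodes oncomodulin, the calcium buffer of outer hair cells. Its values were 681 and 807 scaled CPM in IP and 167 and 142 in input, a log2 change of 2.26 (SE 0.46, limma adjusted p = 0.0027). Ikzf2 encodes Helios, a transcription factor of the outer hair cell fate. It stood at 108 and 94.5 in IP and at 18.4 and 30.6 in input, with a log2 change of 2.04 (SE 0.50, adjusted p = 0.0106). Slc26a5, which encodes prestin and whose locus carries the Cre, had 40.7 and 20.9 in IP and 5.46 and 5.40 in input. Both IP values of each of these genes lay above both input values, but the log2 change of Slc26a5, 2.23, had an SE of 1.10 and did not pass the test (adjusted p = 0.231). Rpl22, whose messenger RNA the tagged allele produces, had 73.2 and 86.9 in IP and 139 and 101 in input (log2 change -0.56, adjusted p = 0.27). The input is a whole organ, and fewer cells of a type and less RNA per cell cannot be told apart in it.

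The median log2 change of the 14 outer hair cell markers was 1.38. Besides Ocm and Ikzf2 the called genes were Lbh, a transcription cofactor, with 404 and 425 in IP and 203 and 162 in input, and Strip2, a component of a kinase and phosphatase complex, with 110 and 62.7 in IP and 25.8 and 10.2 in input. Chrna10, whose product belongs to the acetylcholine receptor of efferent synapses, stood at 43.1 and 65.8 in IP and 9.57 and 2.78 in input (log2 change 3.10, adjusted p = 0.0798). In 12 of the 14 markers both IP libraries lay above both inputs, against 21.9% of all genes. In 1 marker both lay below both inputs, against 26.3% of all genes. The calls depended on single libraries: Ocm alone was called in all 4 comparisons that left out 1 P8 library. Without IP 1 or without IP 2, 1 of the 4 calls remained, and without input 1 or without input 2, 2 remained. The calls of Ikzf2 were lost without input 1, without IP 1 and without IP 2.

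**Figure D1:**
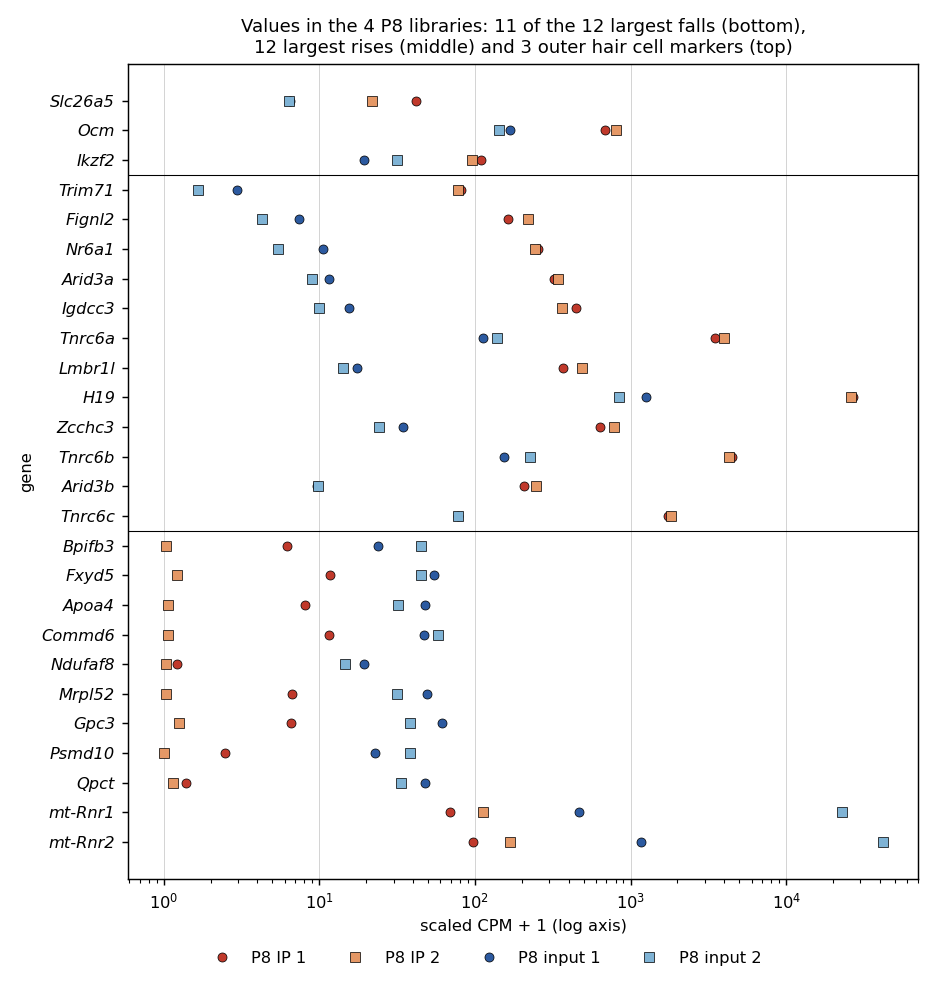
Scaled CPM plus 1 (log axis) of single genes in each of the 4 P8 libraries, with IP libraries in red and orange and inputs in blue, circles for replicate 1 and squares for replicate 2. The bottom block holds 11 of the 12 largest falls, the middle block the 12 largest rises and the top block the markers Slc26a5, Ocm and Ikzf2; among the rises the 2 libraries of each fraction lie close together, while IP 2 lies at or near 0 in many of the falls, and input 2 lies far above input 1 in mt-Rnr1 and mt-Rnr2.

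Inner hair cell markers held a single call. Of 10 tested, 1 was called higher and none lower, with a median of -0.19. Against each input alone the median was above 0, at 0.04 for input 1 and 0.10 for input 2. The called gene was Tbx2, a transcription factor that keeps the inner hair cell fate, with 339 and 390 in IP and 116 and 98.1 in input (log2 change 1.76, adjusted p = 0.000507), and this call held without any 1 P8 library. Otof, which encodes the synaptic calcium sensor otoferlin, stood at 68.6 and 41.9 in IP and 35.3 and 28.2 in input, and Slc17a8, the vesicular glutamate transporter of inner hair cells, at 6.01 and 6.36 against 10.3 and 5.24; neither passed the test. Among 16 markers of both hair cell types, the actin-bundling gene Espn alone was called higher, and none was called lower. Espn had 69.8 and 88.3 in IP and 21.7 and 14.1 in input (log2 change 2.10, limma adjusted p = 0.00415). That call was lost without input 2 and without IP 2. Myo7a, the motor of the mechanotransduction complex, had 40.2 and 35.0 in IP and 7.72 and 12.6 in input (adjusted p = 0.0614), and Myo6, the minus-end myosin at the base of the hair bundle, 442 and 317 against 233 and 273. The median of the list was 1.41. In 11 of the 16 genes the IP libraries both lay above both inputs, against 21.9% of all genes. In 2 genes both lay below both inputs, against 26.3% of all genes.

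Hair cell transcription factors held more calls. Of 23 tested, 8 were higher and none lower, with a median of 1.47. Pou4f3, which hair cells need to survive, had 140 and 173 in IP and 22.1 and 2.95 in input (log2 change 4.04, SE 0.99, adjusted p = 0.0107). On the log2 scale the inputs of Pou4f3 differed from each other more than the IP values did, and its call was lost without input 2 and without IP 2. Sox11, a factor of immature neural and sensory cells, had 557 and 734 against 65.6 and 76.1 (log2 change 3.16, adjusted p = 0.000778). Isl1, a LIM homeodomain factor, had 137 and 152 against 35.3 and 24.6 (2.25, adjusted p = 0.00169). Sox11, Isl1 and Tbx2 stayed called without each P8 library in turn. Rfx5 and Rfx7, members of a family whose relatives Rfx1 and Rfx3 act in hair cell survival, had log2 changes of 1.98 and 1.79, and Ikzf2 and Tbx2 were also among the 8. Gfi1, a target of Pou4f3, stood at 10.2 and 13.8 in IP and 4.13 and 1.64 in input and was not called (log2 change 1.81, adjusted p = 0.301). Across the 23 genes, 20 had both IP libraries above both inputs and none had both below, against 21.9% and 26.3% of all genes. Leaving out IP 1, IP 2, input 1 or input 2 kept 5, 4, 6 and 6 of the 8 calls.

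The mechanotransduction and stereocilia list had 4 of 31 genes called higher and none lower, with a median of 0.97. Strc, which encodes stereocilin of the bundle's top connectors, had 59.6 and 103 in IP and 10.6 and 6.71 in input (log2 change 3.07, adjusted p = 0.0154). Tomt, needed to deliver the channel subunits to the bundle, had 37.8 and 53.0 against 9.50 and 7.37 (2.29, adjusted p = 0.016). Xirp2, an actin-binding protein of stereocilia, was called at the edge of the threshold with 7.38 and 16.8 against 2.33 and 0.16 (2.63, adjusted p = 0.0498), and Espn completed the 4. The channel subunit Tmc1 stood at 31.5 and 26.0 in IP and 10.9 and 5.57 in input (1.74, adjusted p = 0.145), and the tip-link gene Cdh23 at 23.0 and 38.5 against 6.21 and 7.53 (1.97, adjusted p = 0.327). Pcdh15, the partner of Cdh23 in the tip link, had 12.6 and 7.93 against 6.31 and 12.0, so that its groups overlapped. None of the 4 calls remained without input 2 or without IP 2. Of 18 hair cell channel and synapse genes, Ptprd, a receptor phosphatase of synapse formation, was called (731 and 747 in IP, 161 and 159 in input, log2 change 2.20, adjusted p = 0.00304), and it stayed called without each P8 library in turn. The median of that list was 0.68. Atp2b2, the calcium pump of stereocilia, had 107 and 113 against 48.0 and 73.0 (0.88, adjusted p = 0.0736), and Kcnma1, the large-conductance potassium channel, had 6.01 and 5.01 against 12.9 and 43.1 (-1.93, adjusted p = 0.141).

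Genes of supporting cells, which surround the hair cells, went both ways. Of 18 tested, 3 were higher and 4 lower, with a median of -0.71. Lfng, a glycosyltransferase that modifies Notch, had 601 and 647 in IP and 66.7 and 58.0 in input (log2 change 3.30, adjusted p = 0.00384). Cdkn1b, the cell cycle inhibitor p27, had 416 and 496 against 179 and 146 (1.48, limma adjusted p = 0.00289). Hey2, a gene of pillar cells, was also higher (1.90, limma adjusted p = 0.0314). Sparcl1, a matrix glycoprotein, fell from 4431 and 3566 in input to 774 and 544 in IP (-2.61, adjusted p = 4.32e-05). S100a1, a calcium-binding protein, fell from 547 and 403 to 103 and 109 (-2.13, adjusted p = 3.44e-05). The gap junction genes Gjb2 and Gjb6 had log2 changes of -0.88 and -1.14. Lfng, Cdkn1b, Sparcl1 and S100a1 stayed called without each P8 library in turn, and Hey2, Gjb2 and Gjb6 lost their calls whichever P8 library was left out. Of 26 Notch and FGF signalling genes, Lfng and Hey2 were the 2 called, both higher, with a median of 0.29 for the list.

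Tectorial membrane and greater epithelial ridge genes included RNAs that were abundant in both fractions. Col11a2, a fibrillar collagen chain, had 14526 and 13272 in IP and 2694 and 2739 in input (log2 change 2.35, adjusted p = 4.38e-05) and was the 1 of 16 genes called higher. Its fibril partner Col2a1 had 18240.4 and 20850.3 in IP and 20221 and 18588 in input (0.01), and its groups overlapped. In IP 1 and IP 2, Col2a1 took 1.93% and 2.22% of the gene reads outside Gm42418 and Col11a2 1.53% and 1.41%. Among the 4 genes called lower, Clu, a secreted chaperone, fell from 3031 and 2492 to 452 and 422 (-2.65, adjusted p = 3.61e-05). Fkbp9, a prolyl isomerase, fell by 1.84 on the log2 scale, and the collagen chains Col9a1 and Col9a2 by 1.57 and 1.37. Col11a2, Clu and Fkbp9 stayed called without each P8 library in turn. Col9a1 lost its call without input 1 and without IP 2, and Col9a2 without input 1, IP 1 and IP 2. Tecta, a major glycoprotein of the tectorial membrane, had 47.6 and 40.4 against 141 and 96.9 (-1.39, adjusted p = 0.3).

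Markers of cells outside the organ of Corti were present in IP, with no list at 0, and outside the fibrocyte list most were not called. Fibrocyte and mesenchyme genes had 8 of 15 called lower and none higher, with a median of -1.50. Car3, a carbonic anhydrase, fell from 4599 and 3268 to 1114 and 920 (log2 change -1.94, adjusted p = 0.0001), and Otos, which encodes otospiralin, from 2160 and 2120 to 452 and 742 (-1.88, adjusted p = 0.000621). The proteoglycan genes Dcn, Lum and Kera fell by 1.98, 2.09 and 3.59 on the log2 scale; these 3 with Car3 and Otos were the calls held without each P8 library in turn. In the stria vascularis, the epithelium that secretes endolymph, 4 of 14 genes were lower and none higher (median -1.06). Kcne1, a potassium channel subunit, fell from 282 and 290 to 91.2 and 79.1 (-1.74, adjusted p = 0.00144), and Dct, a pigment enzyme of intermediate cells, fell by 1.98 on the log2 scale; these 2 were the calls held without each P8 library in turn. Of 17 spiral ganglion neuron genes 2 were lower, Uchl1, a neuronal deubiquitinase, from 80.8 and 105 to 7.63 and 5.59 (-3.62, adjusted p = 0.000207) and Tubb3, the neuronal tubulin (-2.01, adjusted p = 0.038), and the median was -0.35, with 0.06 against input 1 and -1.08 against input 2. Tubb3 lost its call without input 2 and without IP 1.

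Bone and cartilage markers had 2 of 16 lower (median -1.13), and Spp1, which encodes osteopontin, fell from 455 and 471 to 93.3 and 80.5 (-2.40, adjusted p = 1.45e-05), the 1 of these calls held without each P8 library in turn. Schwann cell genes had 1 of 13 lower, S100b (-0.96), a call lost when any 1 P8 library was left out. Macrophage genes had 1 of 11 lower, C1qa, a complement subunit (-2.34, adjusted p = 0.0118), and their summed level was 96.6 and 143 scaled CPM in IP and 279 and 245 in input. The call of C1qa was lost without IP 2, input 1 or input 2. Of 10 endothelial genes, Emcn, a sialomucin, was lower (-2.27) in the full comparison and without each P8 library in turn. Cldn5, a tight junction gene, was also lower (-1.23), a call lost whichever P8 library was left out, and the VEGF receptor gene Flt1 was higher (1.11), a call lost without IP 1 and without input 2. Of 11 erythroid genes, the globin gene Hbb-bs was lower (-2.08) and Car2, a carbonic anhydrase that other cells also use, was higher (318 and 415 against 199 and 180, 0.94). The call of Hbb-bs was lost without IP 1, input 1 or input 2, and that of Car2 without IP 2 or input 2. None of 12 neutrophil genes was called, at summed levels of 10.3 and 13.6 in IP and 14.1 and 25.7 in input, and the granule enzyme gene Elane had no read in any P8 library. The summed levels of fibrocyte genes were 8586 and 9441 scaled CPM in IP and 18345 and 17531 in input. How far RNA of such cells enters the IP libraries was not tested.

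**Figure D2:**
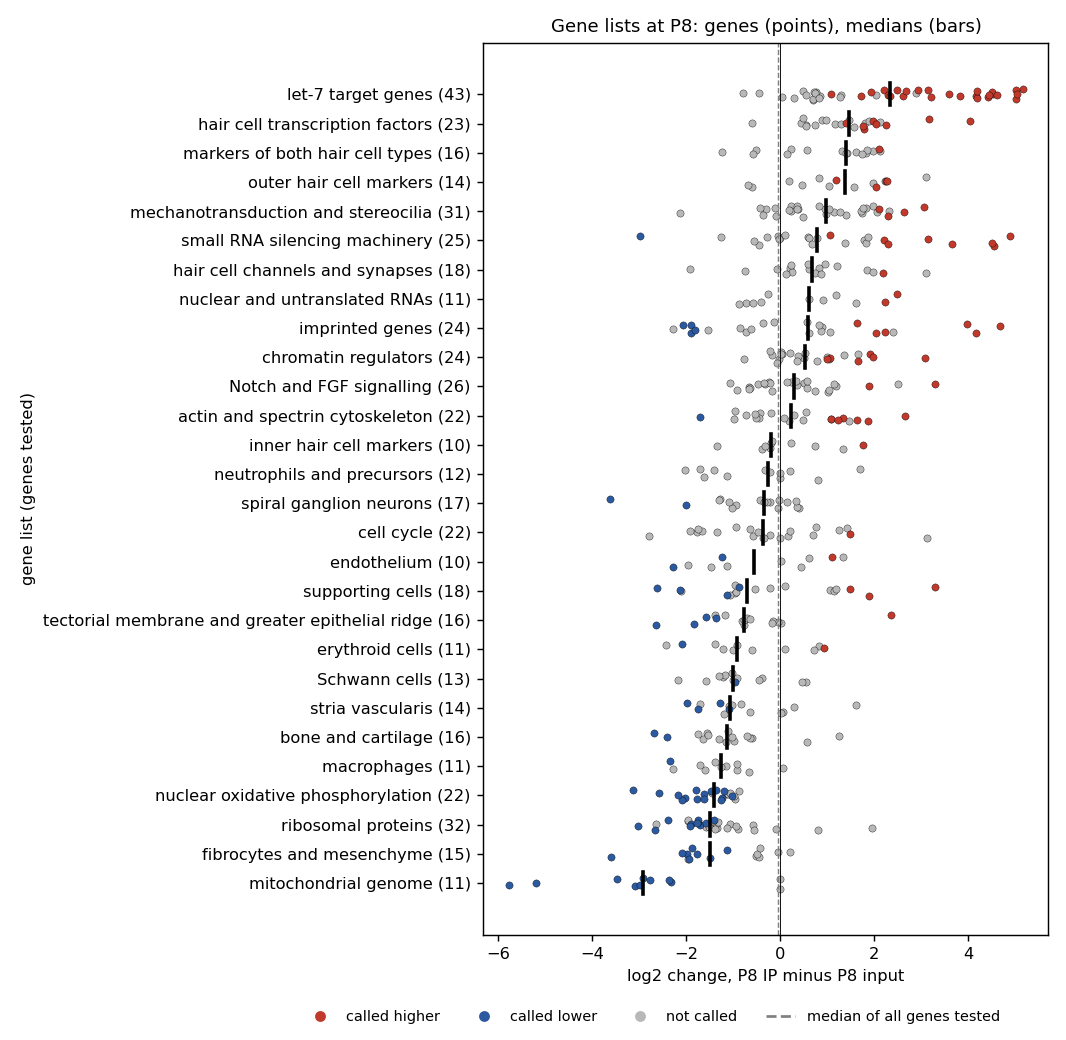
Log2 change between P8 IP and P8 input (horizontal axis) of the genes in 28 lists, ordered by their medians (black bars), with the number of genes tested in brackets. The lists were chosen with earlier results of these data known. Red points were called higher, blue points lower and grey points were not called; let-7 target genes lie at the top with a median of 2.35, and genes of the mitochondrial genome at the bottom with -2.93, while the dashed line marks the median of all genes, -0.05.

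The direction of these list medians was read against all genes, since the scaling moves every gene together. On the values as deposited, the median of all genes was 0.78 higher on the log2 scale than on scaled CPM, and 24 of 28 list medians were above 0, against 12 on scaled CPM. Relative to the median of all genes, 27 of the 28 list medians kept their side on both scalings. The exception was the inner hair cell list, at -0.14 relative to all genes on scaled CPM and at 0.33 on the values as deposited. Between the inputs, the medians of 2 lists changed sign, those of spiral ganglion neurons, given above, and of Notch and FGF signalling, at -0.05 against input 1 and 0.60 against input 2. Leaving out input 2, IP 2, input 1 or IP 1 moved 9, 7, 6 and 2 of the 28 medians by more than the SD over the 4 pairs of 1 IP and 1 input library.

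The genes with the largest rises at P8 were not hair cell markers. The 12 largest were, in falling order, Trim71, Fignl2, Nr6a1, Arid3a, Igdcc3, Tnrc6a, Lmbr1l, H19, Zcchc3, Tnrc6b, Arid3b and Tnrc6c, with log2 changes from 5.16 down to 4.51. All 12 stayed called without each P8 library in turn. Trim71, Nr6a1, Arid3a, Arid3b, Igdcc3 and Zcchc3 belong to the known targets of the let-7 microRNAs. The let-7 family silences genes of early development as tissues mature; a mature let-7 pairs through its seed, bases 2 to 8, with matches in the 3' untranslated region (3' UTR) of its targets. In the developing cochlea, let-7 and its opponent Lin28b are known to govern how long progenitor properties last.

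The seed of the family is shown because it is the sequence that the matches below were counted for. In these mature RNAs from RefSeq (GRCm38.p6), written 5' to 3', capitals mark bases 2 to 8, and 11 mouse mature RNAs of the table share this let-7 seed:
mmu-let-7a-5p: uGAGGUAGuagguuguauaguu
mmu-let-7c-5p: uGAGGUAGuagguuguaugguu
mmu-let-7g-5p: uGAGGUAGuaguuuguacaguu
mmu-let-7i-5p: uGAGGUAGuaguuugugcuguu
mmu-miR-98-5p: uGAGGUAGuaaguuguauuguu
The match searched for on the transcript strand is the heptamer CTACCTC. Windows of 30 bases around 1 match in each of 6 genes are printed in transcript direction, from GENCODE M21 transcripts on GRCm38, with the match in capitals. Each gene was among the 12 largest rises or the let-7 target list:
Trim71 (chr9:114512465-114512494, minus strand, 3' UTR): aacattgcctaagtcCTACCTCagcttaaa
Nr6a1 (chr2:38727442-38727471, minus strand, 3' UTR): tgttgacaaagacaaCTACCTCaatggaaa
Arid3a (chr10:79953895-79953924, plus strand, 3' UTR): aaggcaagtttctttCTACCTCaggtcttt
Igdcc3 (chr9:65185707-65185736, plus strand, 3' UTR): tgtgactctcagcacCTACCTCagccggaa
Fignl2 (chr15:101050482-101050511, minus strand, 3' UTR): ccccggctgcagcacCTACCTCacgagcat
Hmga2 (chr10:120364217-120364246, minus strand, 3' UTR): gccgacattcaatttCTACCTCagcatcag
The matches per annotated 3' UTR numbered 8 in Nr6a1, 4 in Trim71, 4 in Hmga2, 3 in Fignl2, 2 in Arid3a and 2 in Igdcc3. A match is a string of letters and was not tested as a binding site.

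Trim71, a ubiquitin ligase and RNA-binding protein of early development, had 80.0 and 76.7 scaled CPM in IP and 1.95 and 0.65 in input (log2 change 5.16, SE 0.86, adjusted p = 0.000562). Nr6a1, an orphan nuclear receptor of the embryo, had 254 and 241 against 9.60 and 4.42 (5.03, SE 0.55, adjusted p = 1.45e-05). Arid3a, a DNA-binding factor, had 321 and 341 against 10.6 and 8.02 (5.02, adjusted p = 0.000101). In all 3 genes the IP values lay close together and far above both inputs. Igdcc3, an immunoglobulin superfamily receptor, had 442 and 362 against 14.4 and 9.01 (5.01, adjusted p = 0.000191). Fignl2, a relative of the microtubule-severing protein fidgetin, had 162 and 218 against 6.44 and 3.27 (5.07, adjusted p = 0.000231). Hmga2, a chromatin protein and a textbook let-7 target, had 32.6 and 23.0 against 1.45 and 0 (4.18, adjusted p = 0.0068), and its call was lost without input 2.

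The let-7 target list was chosen with earlier results of these data known, and it holds genes of the largest rises above. Its counts are therefore descriptions. Of its 43 genes, 26 were higher and none lower, against 5.28% higher and 5.16% lower among all genes, with a median of 2.35. Both IP libraries lay above both inputs in 39 of the 43 and below both in 1, against 21.9% and 26.3% of all genes. Besides those above, Fign stood at 237 and 259 in IP and 11.6 and 9.17 in input (4.46), Hic2, a transcriptional repressor, at 393 and 379 against 13.0 and 19.6 (4.51), and Plagl2, a zinc finger activator, at 550 and 637 against 26.7 and 36.8 (4.20). The RNA-binding genes Igf2bp1, Igf2bp2 and Igf2bp3 had log2 changes of 2.93, 2.62 and 3.22. Lin28b, which blocks let-7 maturation, stood at 10.1 and 7.71 against 0.50 and 0.16 (2.90, adjusted p = 0.124), and Ccnd1, a cyclin, at 111 and 89.4 against 76.6 and 47.6 (0.71, adjusted p = 0.481). Leaving out IP 1, IP 2, input 1 or input 2 kept 21, 19, 20 and 16 of the 26 calls, 15 of them in every case. A match was present in the 3' UTR of 37 of the 43 genes and of 24 of the 26 called.

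Across the annotation, 15387 of 15492 protein-coding genes tested had a 3' UTR (99.3%). A let-7 match was present in 30.03% of those called higher (303 of 1009), in 3.27% of those called lower (29 of 888) and in 10.2% of all. The longer match, CTACCTC followed by A, was present in 13.4%, 0.901% and 3.59%. The share among genes called higher was 29.4% without IP 1, 32.7% without IP 2, 30.5% without input 1 and 33.7% without input 2. Genes called higher also had longer 3' UTRs, with a median of 2177 bases against 626 for those called lower and 1147 for all. Per kilobase of 3' UTR, the matches numbered 0.146 in genes called higher, 0.0412 in those called lower and 0.0723 in all.

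The following counts were chosen after the values were seen and are descriptions. Genes with 0, 1, 2, and 3 or more matches numbered 13812, 1378, 169 and 28. Of these, 5.11%, 17.1%, 31.4% and 53.6% were called higher, and the median log2 changes were -0.14, 0.48, 0.88 and 2.15. At the later ages the corresponding medians were -0.16, 0.38, 0.72 and 1.70. The median 3' UTR length rose along the same classes, from 1038 to 2178.5, 3475 and 4459.5 bases. Within 4 classes of equal size by 3' UTR length, from shortest to longest, genes with a match were called higher in 8.33%, 15.02%, 19.7% and 21.3%, and genes without a match in 1.28%, 3.43%, 6.39% and 10.4%. Among 1358 heptamers that match a mouse microRNA seed and occur in at least 200 genes, the let-7 heptamer ranked 2 by the ratio of its share in genes called higher to its share in all (2.93, against a median ratio of 1.59), and 1 by the median log2 change of the genes holding it (0.53).

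The heptamer of rank 1 by that ratio, TACGGGT, matches the miR-99 and miR-100 seed, whose genes lie in clusters with let-7 and miR-125 genes. The 2 mature RNAs are shown to set this seed beside that of let-7:
mmu-miR-99a-5p: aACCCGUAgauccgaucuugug
mmu-miR-100-5p: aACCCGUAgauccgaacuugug
The heptamer TACGGGT was present in 43 genes called higher, or 4.26% against 1.32% of all (ratio 3.23). It occurred in 203 genes in all, just above the limit of 200. The heptamer of miR-125, CTCAGGG, ranked 17, with a ratio of 2.13. The hair cell microRNAs miR-96, miR-182 and miR-183, which share most of their seeds, had ratios of 1.73, 1.67 and 1.602. Their ranks were 194, 357 and 626 of 1358, and each ratio lay above the median of 1.59. MicroRNAs themselves were not measured by these libraries.

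**Figure D3:**
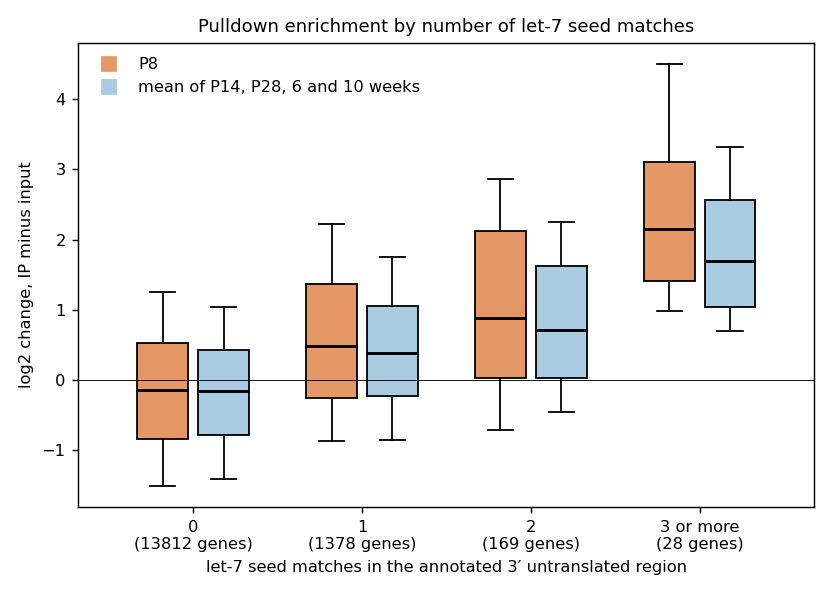
Log2 change between IP and input (vertical axis) of protein-coding genes by the number of let-7 seed matches in the annotated 3' UTR, at P8 (orange) and as the mean of the 4 later ages (blue). Boxes span the quartiles with the median as a black line and whiskers reach the 10th and 90th percentiles; the P8 medians go from -0.14 with no match to 2.15 with 3 or more matches.

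Genes of the machinery that carries out microRNA silencing were among those with the largest rises. Of 25 genes, 8 were higher and 1 lower, with a median of 0.77. The 3 GW182 scaffold genes, which bind Argonaute proteins, led them: Tnrc6a had 3505 and 3996 in IP and 112 and 138 in input (log2 change 4.90, SE 0.54, adjusted p = 1.85e-05). Tnrc6b had 4476 and 4312 against 154 and 225 (4.56, adjusted p = 6.22e-05), and Tnrc6c 1732 and 1808 against 76.7 and 77.0 (4.51, adjusted p = 3.56e-05). No let-7 match lay in the annotated 3' UTRs of these 3 genes. Ago2, the Argonaute with slicing activity, had 1107 and 1052 against 68.9 and 105 (3.65, adjusted p = 0.000664), and Ago3 had a log2 change of 2.21. Dicer1, which cuts microRNA precursors, had 706 and 575 against 70.5 and 72.2 (3.14, adjusted p = 9.85e-05), and the decapping enzyme Dcp2 a log2 change of 2.29. Ago1 (1.06) was called but lost its call whichever P8 library was left out, and the other 7 kept theirs in all 4 cases. Drosha, the nuclear processing enzyme, had 50.3 and 39.1 against 65.5 and 57.5 (-0.46, adjusted p = 0.546). The 1 gene called lower, Xpo5, the exporter of precursors, had 15.4 and 0.22 in IP and 26.3 and 44.4 in input (-2.98, adjusted p = 0.0218), and that call was lost without input 1, input 2 or IP 2.

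Imprinted genes, which are expressed from the allele of 1 parent, included some of the most abundant RNAs of the pulldown. Of 24 tested, 6 were higher and 4 lower, with a median of 0.60. H19, a noncoding RNA and the host of miR-675, had 27009 and 26054 in IP and 1258 and 846 in input (log2 change 4.68, SE 0.73, adjusted p = 0.000324). Its neighbour Igf2, a growth factor gene of the opposite parental allele, had 17798 and 15684 against 1223 and 926 (3.97, SE 0.80, adjusted p = 0.00255). H19 took 2.85% and 2.77% and Igf2 1.88% and 1.67% of the gene reads outside Gm42418 in the IP libraries. Igf2r, the receptor that clears Igf2, rose by 1.64 on the log2 scale, and Mkrn3, a ubiquitin ligase, from 2.56 and 2.62 in input to 58.9 and 69.1 in IP (4.18, adjusted p = 0.00381). Impact, a regulator of translation, rose by 2.04, and Kcnq1ot1, a noncoding antisense RNA, by 2.23. All 6 rises stayed called without each P8 library in turn. Cdkn1c, a cell cycle inhibitor, fell by 1.91 and Gnas, a G protein subunit gene, by 1.80 on the log2 scale, and both also stayed called. Ndn and Snrpn fell by 2.06 and 1.90, and these calls were each lost without input 2. Leaving out any other P8 library also lost the call of Ndn or of Snrpn. The sequence of the longest H19 transcript (2286 bases) held no CTACCTC, and the heptamer occurred in 252 of 1725 noncoding genes tested.

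Nuclear and untranslated RNAs, which ribosomes are not known to translate, did not move together: 2 of 11 were higher and none lower, with a median of 0.62. Xist, the X-inactivation RNA, had a log2 change of 2.49 (adjusted p = 0.0115), a call lost without input 1 and without IP 1, and Kcnq1ot1 was the other. Malat1, an abundant nuclear RNA, had 4434 and 4180 in IP and 2920 and 9041 in input (-0.26), and Neat1, the scaffold of paraspeckles, 69.9 and 21.6 against 41.1 and 67.0 (-0.42). For both genes the IP values lay inside or across the range of the inputs. Reads in no annotated gene made up 25.9% and 20.2% of all reads in IP and 14.8% and 20.4% in input.

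Most of the mitochondrial genome's genes tested were lower in IP. Of 11 rows tested 9 were lower, with a median of -2.93, and all 9 stayed called without each P8 library in turn; mt-Co2 and mt-Co3 were at 0 in all 4 libraries. For mt-Co1, which encodes a cytochrome oxidase subunit, the values were 536 and 601 in IP and 6521 and 6189 in input (log2 change -3.48, adjusted p = 8.01e-05). For mt-Cytb they were 624 and 790 against 5164 and 4441 (-2.77). Genes of the mitochondrial genome made up 0.279% and 0.363% of the gene reads outside Gm42418 in IP and 2.34% and 6.25% in input. Of the same reads, mt-Rnr1 and mt-Rnr2 together made up 0.0174% and 0.0298% in IP and 0.168% and 4.78% in input. The mitochondrial ribosomal RNA rows had the largest log2 changes of all named genes, -5.77 for mt-Rnr2 and -5.20 for mt-Rnr1. Those 2 values rest on input 2: mt-Rnr2 had 96.2 and 168 in IP, 1172 in input 1 and 41546 in input 2. Against input 1 alone the log2 changes of mt-Rnr2 and mt-Rnr1 were -3.20 and -2.40, smaller falls than the -5.24 of the nuclear gene Qpct, and against input 2 alone they were -8.34 and -8.003.

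Nuclear genes of oxidative phosphorylation were lower as well, with 15 of 22 called lower and none higher and a median of -1.40. Cox4i1, a cytochrome oxidase subunit, fell from 642 and 575 to 116 and 192 (log2 change -2.02, adjusted p = 0.000172), and Atp5b, an ATP synthase subunit, from 1061 and 946 to 368 and 356 (-1.47, adjusted p = 0.00355). All 22 had both IP libraries below both inputs, against 26.3% of all genes. Leaving out IP 1, IP 2, input 1 or input 2 kept 9, 12, 8 and 13 of the 15 calls. Cytoplasmic ribosomal protein genes had 11 of 32 lower and none higher, with a median of -1.50. Rps14 fell from 359 and 393 to 67.5 and 50.1 (-2.67, adjusted p = 0.00145) and Rps15 by 1.93 on the log2 scale, and these 2 calls were the ones held without each P8 library in turn. Without input 1, 2 of the 11 calls remained. Rps3, also a DNA repair factor, had 602 and 794 in IP and 923 and 592 in input (-0.10). On the values as deposited, the medians of the 2 lists were 0.08 and -0.20, which lay 0.66 and 0.94 below the median of all genes on that scale. Many ribosomal protein genes have near-identical pseudogenes, so that their counts are uncertain.

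Transcript length moved with these differences. The median annotated transcript was 764 bases in the oxidative phosphorylation list and 869 bases in the ribosomal protein list, 4470 in the let-7 list, 9020.5 in the chromatin list and 3078 over all genes with a 3' UTR. With genes in 4 classes of equal size by transcript length, in the shortest class 1.64% of genes were called higher and 11.4% lower, and in the longest class 12.1% and 2.05%. The part of length in the changes of single lists was not tested.

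Further falls outside the mitochondrial genome were led by Qpct, an enzyme that modifies peptide ends. It fell from 46.6 and 32.6 in input to 0.38 and 0.15 in IP (log2 change -4.99). Psmd10, a proteasome assembly factor, fell from 21.9 and 37.5 to 1.49 and 0 (-4.23), and Gpc3, a cell surface proteoglycan, from 60.2 and 37.0 to 5.56 and 0.26 (-4.07). Mrpl52, Ndufaf8, Commd6, Apoa4, Fxyd5 and Bpifb3 were also among the 12 largest falls, with log2 changes from -3.91 to -3.69. In contrast to the rises, the falls depended on single libraries: without IP 2 or without input 1, 5 of the 12 remained called, without input 2 8 and without IP 1 all 12. The 5 held in every case included mt-Rnr1, mt-Rnr2, Psmd10 and Qpct.

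Chromatin regulators had 6 of 24 genes higher and none lower, with a median of 0.52. Chd7, a chromatin remodeller that ear development needs, had 494 and 485 in IP and 53.9 and 59.4 in input (log2 change 3.09, adjusted p = 0.000121). Kmt2a, a histone methyltransferase, had a log2 change of 1.91, and these 2 stayed called without each P8 library in turn; Tet2, Ezh1, Arid1a and Smarca4 were the others, from 1.97 to 0.99. Actin and spectrin cytoskeleton genes had 6 of 22 higher and 1 lower, with a median of 0.24. Myh9, the nonmuscle myosin heavy chain, had 608 and 576 in IP against 185 and 192 (1.64, adjusted p = 0.00376). The spectrin genes Sptbn1, Sptbn4 and Sptan1 and the myosin gene Myh10 were also higher, from 1.86 to 1.09, and each of these calls was lost without at least 1 P8 library. Actb, which encodes a cytoplasmic actin, fell from 1107 and 1279 to 363 and 362 (-1.71, adjusted p = 0.00053). Of 22 cell cycle genes, the inhibitor Cdkn1b was the 1 called, and Mki67, a marker of dividing cells, had 12.7 and 11.2 in IP and 8.75 and 22.1 in input.

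**Figure D4:**
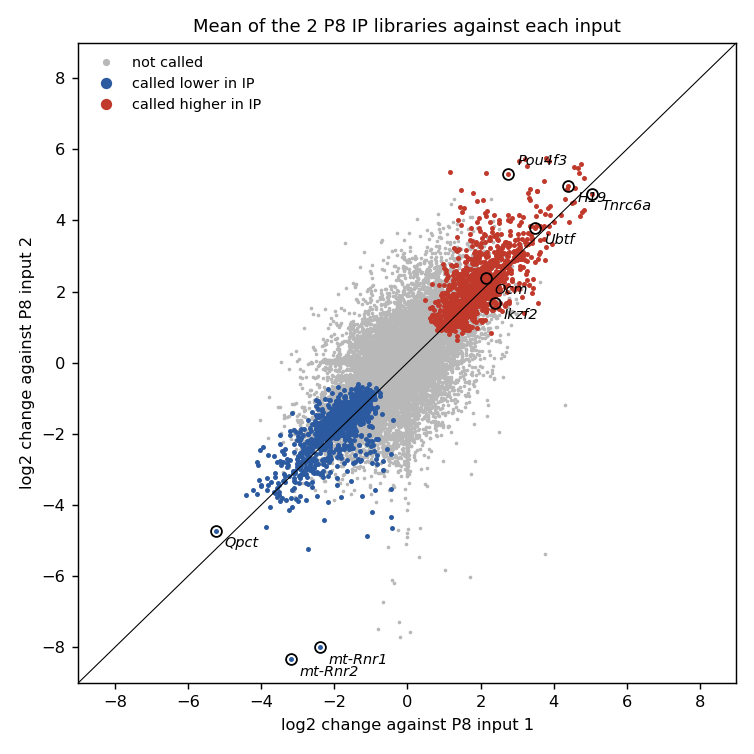
Log2 change of the mean of the 2 P8 IP libraries against input 1 (horizontal axis) and against input 2 (vertical axis), 1 point per gene, with the diagonal as a line. Called genes (red higher, blue lower) lie along the diagonal, as Tnrc6a, H19 and Ocm do, while mt-Rnr1 and mt-Rnr2 lie far below it and Pou4f3 above it.

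Enrichment at P8 was then set against the mean enrichment of P14, P28, 6 weeks and 10 weeks, with the difference itself tested. Of 20490 genes, 31 had a higher enrichment at P8 (0.151%) and 12 a lower one (0.0586%). With same-numbered IP and input libraries taken as a block, 8 and 3 were called, though no label says that they share mice. The 3 outer hair cell markers were not among the 31 and 12. Ocm had an enrichment of 2.26 at P8 and 2.14 later, Ikzf2 2.04 and 2.50, and Slc26a5 2.23 and 0.32 (difference 1.91, SE 1.22, adjusted p = 0.648). None of the list genes of hair cells, let-7 targets, silencing machinery, oxidative phosphorylation or ribosomal proteins passed this test. The count rested on single libraries: without P8 input 2 or without P8 IP 2, 1 gene was called, and without P8 input 1 or P8 IP 1, 190 and 164. Without P14 IP 1, P14 IP 2, P28 IP 1 or P28 IP 2 it was 102, 99, 208 and 80. It was 14 to 18 without any 1 of the 6-week libraries, and 13 to 23 without any 1 of the 10-week libraries except IP 1, where it was 60. Without both of the later-age libraries P14 IP 1 and P28 IP 2, 416 genes were called.

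The 1 gene called without P8 input 2, and likewise without P8 IP 2, was Ubtf, which encodes the upstream binding factor that RNA polymerase I needs to transcribe ribosomal RNA genes. Ubtf had 2591 and 1514 scaled CPM in P8 IP and 176 and 141 in P8 input, an enrichment of 3.64. At P14, P28, 6 weeks and 10 weeks its enrichments were -0.06, -0.29, -0.45 and -0.14. The difference was 3.88 (SE 0.37, adjusted p = 1.25e-05), and it was 3.72 without input 2 (adjusted p = 0.00125), 4.26 without IP 2 (6.94e-05), 4.04 without input 1 (0.000117) and 3.49 without IP 1 (0.00133). No other gene stayed called in all 4 cases. The annotated 3' UTR of Ubtf held no let-7 match.

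Among the other genes named for a higher enrichment at P8, Zbtb7a, a transcriptional repressor, had 1266 and 1352 in P8 IP and 114 and 90.2 in input, an enrichment of 3.68 against 1.39 later. Faim2, an inhibitor of apoptosis in neurons, had 67.2 and 65.0 against 12.4 and 17.0, an enrichment of 2.11 against -0.74 later (difference 2.85, adjusted p = 0.00687). At the later ages Faim2 ranged from 22.9 to 111 in IP and from 50.1 to 239 in input. Dnaja4, a cochaperone, had 110 and 104 in P8 IP against 43.6 and 23.1 in P8 input. Lalba, Gpr55 and Ccdc117 also had a higher enrichment at P8. Lalba had 4.90 and 6.51 in P8 IP and 0.35 and 0 in input, and Gpr55 8.87 and 11.8 against 2.31 and 0.16. In the later-age libraries of both fractions Lalba reached at most 0.29 and Gpr55 at most 1.21. Their later enrichments thus rest on values near the floor. Car2 was the 1 member of the lists with a higher enrichment at P8, 0.94 against -0.68.

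Genes with a lower enrichment at P8 included Col9a1, a chain of the collagen that decorates type II collagen fibrils. Its enrichment was -1.57 at P8, -0.61 at P14, 1.13 at P28, 2.26 at 6 weeks and 1.86 at 10 weeks, so that its sign changed with age. Its level was lower later in both fractions. Col9a1 had 2324 and 1969 in P8 IP and 7512.5 and 5362 in P8 input. At 6 weeks it had 185 and 132 in IP and 34.5 and 29.3 in input. Cacna1a, a neuronal calcium channel gene, had 1.37 and 0.04 in P8 IP and 7.22 and 5.89 in input, an enrichment of -2.26 against 1.14 later. Kcnq1ot1 was enriched at both, by 2.23 at P8 and 4.20 later. Of the nuclear RNAs, Malat1 had -0.26 at P8 and 2.15 later and Snhg11 -0.87 and 2.07. Dnmt3a, a DNA methyltransferase, had 584 and 468 in P8 IP and 396 and 512 in input, an enrichment of 0.22 against 2.76 later (difference -2.54, adjusted p = 0.0378). Tmem151b, Bdh1, Mpzl1 and Kdm5b were the remaining genes named. P8 and P14 mice were both under 21 days, the range of the lower tamoxifen dose, and at that dose Ubtf had an enrichment of 3.64 at P8 and -0.06 at P14. The age at injection of the older mice is not given in the sources used here, so that age and dose cannot be told apart between P8 and P28, 6 weeks or 10 weeks.

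**Figure D5:**
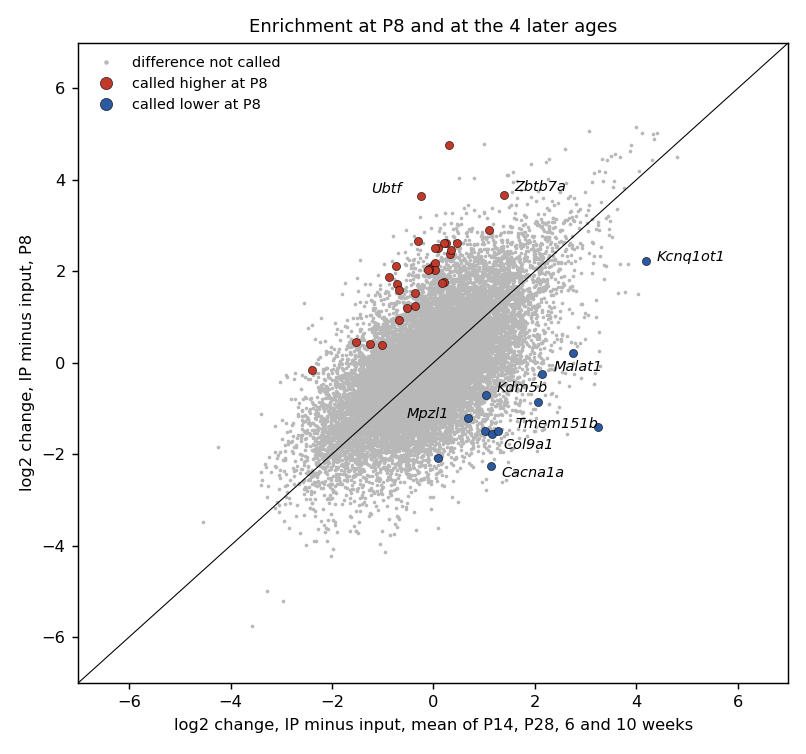
Log2 change between IP and input at P8 (vertical axis) against the mean of the 4 later ages (horizontal axis), 1 point per gene, with the diagonal as a line. Red points have a higher and blue points a lower enrichment at P8 by the test of the difference; Ubtf stands at 3.64 on the vertical axis and -0.24 on the horizontal axis.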

How the data were processed

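The authors deposited 1 table per library with CPM values (reads per gene scaled to the library's total, as the column sums of 1000000 show) for 49671 gene rows and 5 rows naming no gene, which were kept out of scaling and tests. Reads were aligned with TopHat to GRCm38, per the submitters' processing notes; versions, the counting tool and its use of strand were not given in the sources used here, so overlapping, antisense and near-identical genes could not be told apart. Dividing by the value of 1 read gave whole numbers in 100% of cases (tolerance 0.01), so that reads were recovered.

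Reads were divided by gene reads outside Gm42418 times a TMM factor (edgeR 4.0.16). The filter kept genes with 1 scaled CPM or more in 2 or more libraries; tests used log2(scaled CPM + 1), which understates changes of low genes, and limma 3.58.1 (R 4.3.3, trended prior, 10 group means over 22 libraries, two-sided, adjusted p under 0.05). Fold changes are on that scale. The procedure was tested on simulated reads.

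Lists hold 516 genes, 496 of them tested; they and the comparisons were chosen with earlier results of these data known. Named genes are Slc26a5, Ocm, Ikzf2 and Rpl22, the 12 largest called changes each way (a mean of 5 or more on the higher side, symbols of predicted genes, clones, pseudogenes and microRNAs left out, IP libraries beyond both inputs), called list members and up to 4 uncalled ones per list, and for the difference between ages the 8 largest each way by the same limits, of which 8 and 7 existed; some genes the rule names are not reported here. Alternatives were other scalings, filters, pseudocounts, fits, left-out libraries, edgeR's quasi-likelihood test and DESeq2 1.42.0 on the recovered reads (1738 and 3087 genes called at P8). 3' UTRs and coordinates, counted from 1, are from GENCODE M21, on which 49412 gene rows were found.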

Additional observations from a re-analysis of the deposited data

Results flagged for a closer look

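The pulldown enrichment of 43 genes at P8 differed from the mean enrichment at the later ages by the test of that difference (limma, adjusted p under 0.05), the criterion for the genes given here. The differences in log2 enrichment, P8 minus later ages, were 3.88 for Ubtf, 2.85 for Faim2, 2.48 for Lalba, 2.44 for Dnaja4, 2.43 for Gpr55, 2.37 for Ccdc117, 2.29 for Zbtb7a and 1.62 for Car2. They were -1.75 for Kdm5b, -1.89 for Mpzl1, -1.97 for Kcnq1ot1, -2.40 for Malat1, -2.52 for Bdh1, -2.54 for Dnmt3a, -2.73 for Col9a1, -2.76 for Tmem151b, -2.93 for Snhg11 and -3.40 for Cacna1a. The values of Lalba and Gpr55 at the later ages lay near the floor in both fractions. Ubtf was the 1 gene still called without P8 input 2 and without P8 IP 2.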

How the results depend on the processing

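With 2 libraries a group, precision at P8 is limited by the number of libraries and by the 8199831 gene reads that input 2 holds outside Gm42418. IP 2 also had reads in fewer gene rows than IP 1, 15565 against 18834. The 2140 genes called at P8 (1082 higher, 1058 lower) became 0 in a fit of the 4 P8 libraries alone (limma, 4550 at an unadjusted p under 0.05; edgeR's quasi-likelihood test on all libraries called 1738 and DESeq2 3087), 3845 without P14 IP 1 and P28 IP 2, and 945 (without input 2) to 1657 (without IP 1) when 1 P8 library was left out. The 43 genes whose enrichment differed at P8 became 26 with a pseudocount of 0.25, 23 on the values as deposited, 68 with quantile normalization, 613 with DESeq2, 416 without P14 IP 1 and P28 IP 2, and 1 (without P8 input 2) to 208 (without P28 IP 1) when 1 library was left out. The causes were not tested. Labels number IP and input alike, but the number does not say that they share mice: deviations of same-numbered libraries correlated at 0.07 (P8), 0.09 (P14), 0.04 (P28), 0.28 (6 weeks) and 0.11 to 0.20 (10 weeks), where each library correlated best with its own number. With the number as a replicate block, 2213 genes were called at P8 and 11 for the difference. The longer let-7 match was in 13.38% of genes called higher, against 30.03% for the heptamer.

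Of single-gene values at P8, 171 genes under all alternatives, 2156 of 2732 kept direction and side of the threshold, 551 lost and 7 gained a call, and 18 reversed, all on the values as deposited, where the median of all genes was 0.74: Atp5a1 0.13, Atp5b 0.032, Cldn11 0.39, Cldn5 0.20, Coch 0.37, Col9a2 0.14, Cox8a 0.29, Gjb2 0.61, Gjb6 0.35, Kdm5b 0.76, Mpzl1 0.27, Ndufv1 0.24, Rpl22 0.88, Rpl4 0.092, S100b 0.54, Sdha 0.46, Sdhb 0.15 and Slc12a2 0.22. Of the difference, Ikzf2 reversed to 0.89 on the values as deposited, and Ocm, at 0.12, to -0.0095 with DESeq2 and to between -0.033 (without P28 input 2) and 0.28 (without P28 input 1) when 1 library was left out. Leaving out the rows overlapping ribosomal RNA, chosen after the data were seen, gave 2052 and 46 calls.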
